A study of Saccharomyces cerevisiae with 4 samples.

Results

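The genes described here encode the DNA replication machinery of Saccharomyces cerevisiae, 38 of the 7126 genes and transcripts in the deposited table. They were taken by systematic name and cover the origin recognition complex (ORC), the MCM helicase, CDC6, CDC45, the firing factors SLD2, SLD3 and DPB11, and the kinase genes CDC7 and DBF4. They also cover the replicative DNA polymerases with primase, the single-stranded DNA binding protein RPA, the sliding clamp PCNA (POL30) with its loader RFC, DNA ligase (CDC9), the flap nuclease gene RAD27, and CDC21. All 38 matched the R64 RefSeq annotation by locus tag and symbol, and none overlapped another annotated gene there.

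Poly(A) RNA was sequenced from the haploid strain BY4741, of mating type a, carrying CRISPR interference, in which a guide RNA brings a Cas9 protein without cutting activity to a chosen site to hinder transcription. The +116 group holds 2 libraries, A and B, with a guide against the GAL10 noncoding RNA, and the scrambled group holds 2 libraries, A and B, whose guide has a scrambled sequence. In both groups the cells were grown in glucose medium without leucine or uracil and followed from an optical density of 0.1 until it reached 0.4. The labels do not say whether A and B came from separate cultures, so the p-values measure only the spread between these libraries. The comparison asks which transcripts differ when the GAL10 noncoding RNA is inhibited.

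Replication starts at origins, which ORC marks through the cell cycle. In G1, Cdc6 and Cdt1 help ORC to load the Mcm2-7 helicase as an inactive ring, and in S phase the Cdc7-Dbf4 kinase and the firing factors recruit Cdc45 and GINS and start the forks. Polymerase alpha-primase then lays primers, RFC loads PCNA, and polymerases epsilon and delta extend the leading and lagging strands. In budding yeast many of these genes are transcribed in late G1 by MBF, a factor that binds the MluI cell cycle box (MCB), whereas several MCM genes and CDC6 are transcribed from the end of mitosis through the early cell cycle box (ECB), bound by Mcm1.

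Promoter windows from 250 bases before to 50 bases after the start codon were read from the R64 genome to see which of these boxes the genes hold. The MCB letters ACGCGT, which read the same on both strands, occurred in 17 of the 38 windows (44.7%), against 184 of all 6001 windows (3.07%). A loose form of the ECB, TTNCC and GGAAA with any 6 bases between them on either strand, occurred in 5 of 38 (13.2%), against 39 of 6001 (0.65%). The windows that held it were those of MCM3, MCM5, MCM6, MCM7 and CDC6, and of these only CDC6 also held an MCB. The SCB letters CGCGAAA, the box of the related factor SBF, occurred in 4 of 38 on either strand, against 3.6% of all windows. A match is a run of letters and not a shown binding site.

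The ECB-like stretches are shown because 4 of them precede MCM genes, and all 6 MCM genes lay on the same side of 0 in the comparison of the guides. MCM2 and MCM4 lay there without a match, and a link between match and log2 fold was not tested. Each line gives the coding strand, 5′ to 3′, with 20 bases on either side of the outermost matches, and capitals mark the matches. In MCM7 and CDC6, 2 matches follow each other directly. The CDC6 stretch also holds its MCB, in lower case.
MCM7, R64 chrII:625523-625594, plus strand: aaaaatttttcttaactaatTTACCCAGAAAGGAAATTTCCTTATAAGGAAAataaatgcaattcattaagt
MCM6, R64 chrVII:121050-121105, minus strand: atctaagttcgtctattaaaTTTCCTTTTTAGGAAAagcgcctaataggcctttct
MCM5, R64 chrXII:691381-691436, plus strand: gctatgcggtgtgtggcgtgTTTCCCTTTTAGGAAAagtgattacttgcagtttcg
MCM3, R64 chrV:86732-86787, plus strand: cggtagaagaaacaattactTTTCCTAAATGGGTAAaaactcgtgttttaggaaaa
CDC6, R64 chrX:69125-69196, plus strand: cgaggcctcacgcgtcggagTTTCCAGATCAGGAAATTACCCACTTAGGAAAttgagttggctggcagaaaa

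The MCB stretches are shown for genes that lay on opposite sides of 0 in the comparison of the guides, CDC45, POL2 and POL1 above it and CDC21, POL30, RFC4 and RFA2 below it. Capitals mark ACGCGT. In POL30 the box shares 1 base with an SCB match that precedes it.
CDC45, R64 chrXII:346066-346141, minus strand: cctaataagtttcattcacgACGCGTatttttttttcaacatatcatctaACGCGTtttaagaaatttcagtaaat
POL2, R64 chrXIV:148077-148122, plus strand: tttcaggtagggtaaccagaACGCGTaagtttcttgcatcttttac
POL1, R64 chrXIV:429859-429939, plus strand: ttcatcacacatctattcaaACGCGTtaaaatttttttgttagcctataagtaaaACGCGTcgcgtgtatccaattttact
CDC21, R64 chrXV:467685-467767, minus strand: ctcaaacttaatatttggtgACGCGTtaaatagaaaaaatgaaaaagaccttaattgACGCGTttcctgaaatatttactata
POL30, R64 chrII:425936-425981, minus strand: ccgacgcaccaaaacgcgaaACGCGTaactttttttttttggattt
RFC4, R64 chrXV:142666-142711, minus strand: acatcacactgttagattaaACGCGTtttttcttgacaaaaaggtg
RFA2, R64 chrXIV:48147-48204, plus strand: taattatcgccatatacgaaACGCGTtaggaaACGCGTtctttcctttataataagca

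**Figure D1:**
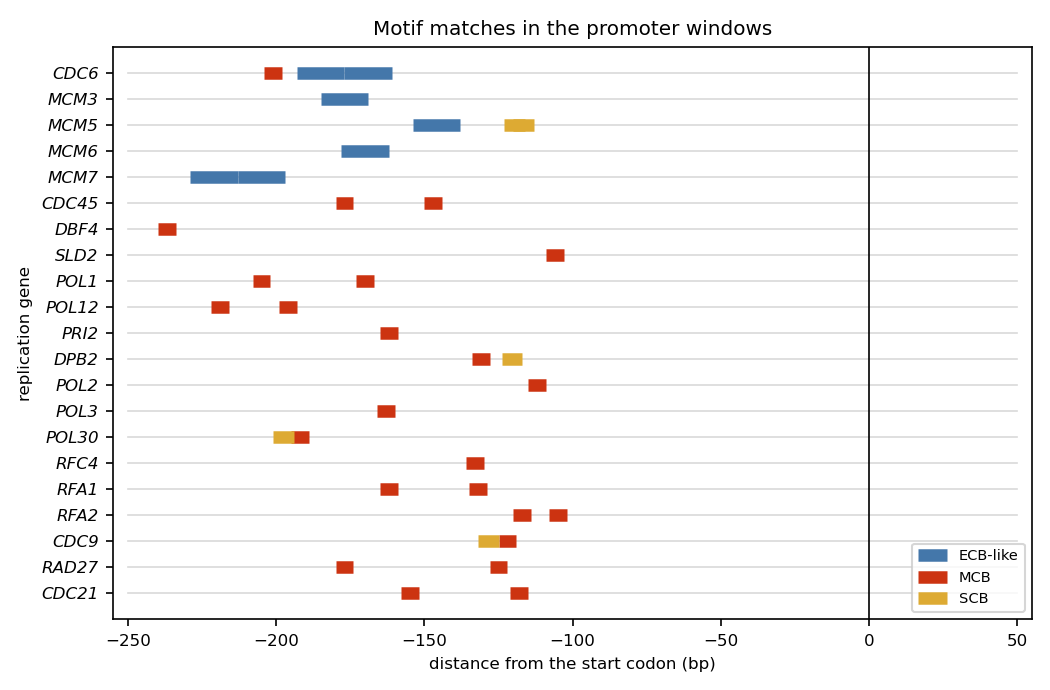
Positions of MCB, SCB and ECB-like matches (coloured blocks) in the promoter windows of the replication genes that hold at least 1, from 250 bases before the start codon (line at 0) to 50 after it. None of the 17 genes with an MCB is an MCM or ORC gene, and the ECB-like matches lie in 4 MCM genes and CDC6.

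Recovered reads per library came to between 34215480 and 40628383 over all genes, and no replication gene had fewer than 993 normalized reads in any library. Values are normalized reads, that is, reads per gene over the size factor of the library as the authors scaled them. At the targeted locus, GAL1 had 133 and 116 normalized reads in the +116 libraries, against 411 and 469 in the scrambled libraries. GAL10 had 192 and 171 in the +116 libraries, against 95 and 113 in the scrambled libraries, and the GAL10 noncoding RNA itself was not analysed here. The 5 genes that mark mating type a lay between 8609 and 26546 normalized reads in all libraries, the 3 alpha-specific genes between 5.0 and 378, and 4 meiosis genes between 86.8 and 378. None of these markers was at 0. MET17, deleted in BY4741, was at 0 in all 4 libraries.

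None of the 38 replication genes passed the test for a difference between the guides. The test was limma on log2(normalized count + 1), with Benjamini-Hochberg adjustment over the 6277 genes with a mean of at least 5 and a threshold of 0.05. Across all tested genes 53 passed it (0.844%, with 0.51% higher and 0.335% lower in the +116 libraries), and the lowest adjusted p of the replication genes was 0.095, for MCM7 (YBR202W). On the recovered whole reads 0 passed by edgeR, where 2.64% of all tested genes did, and 0 by DESeq2, where 2.87% did and 28 of the 38 had an adjusted p. The unadjusted p was under 0.05 for 11 of the 38 by edgeR, against 22.1% of all tested genes, and for 5 by DESeq2, against 13%. An unadjusted limma p under 0.05 was found for 11 of 38 (28.9%), 7 above and 4 below 0, against 21.8% of all tested genes, 11.5% above and 10.3% below.

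Their log2 folds, +116 over scrambled, ran from −0.17 to 0.23 with a median of 0.0316, beside 0.0013 over all tested genes. The log2 fold was above 0 for 25 genes (65.8%), against 50.5% of tested genes. The values of the groups did not overlap for 23 genes (60.5%), 14 with both +116 libraries above and 9 with both below, against 53.5% of tested genes, 27.3% above and 26.3% below. The log2 fold was larger in size than the A to B difference of either group for 19 of the 38, against 39.7% of all tested genes. The A to B difference had a median size of 0.0425 on the log2 scale in the +116 group and 0.0779 in the scrambled group, beside 0.068 and 0.0716 over all tested genes.

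**Figure D2:**
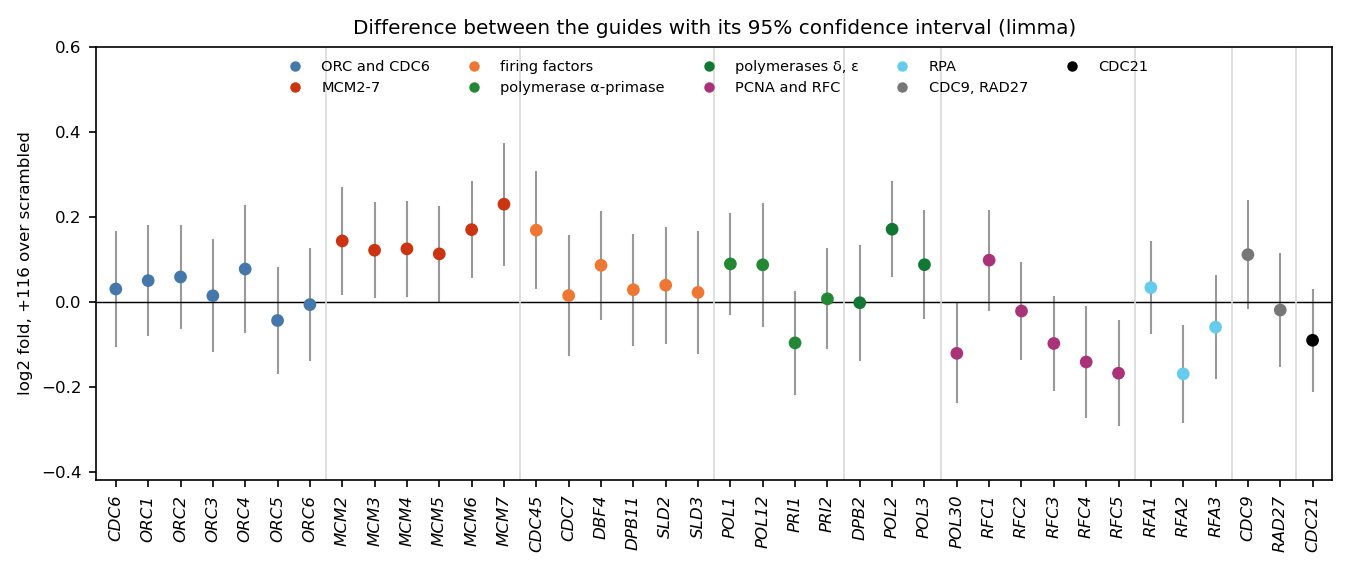
Log2 fold (+116 over scrambled) of each of the 38 genes with its 95% confidence interval from limma, coloured and separated by role. All 6 MCM genes lie between 0.11 and 0.23, and RFC2 to RFC5, POL30 and RFA2 lie below 0.

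The MCM genes, which encode the 6 subunits of the replicative helicase ring, all had higher values in both +116 libraries than in either scrambled library. All are over 2100 bp, a limit chosen after the values were seen. Of the 1187 tested genes over it, 748 were likewise higher without overlap, against 27.3% of all tested genes. MCM7 (YBR202W) had 4319 and 4251 normalized reads in +116 A and B, against 3967 and 3366 in scrambled A and B. The scrambled libraries lay further apart than the +116 libraries. Its log2 fold was 0.23 with a standard error (SE) of 0.0674 and a 95% confidence interval of 0.08 to 0.37 (limma adjusted p = 0.095). Without +116 B MCM7 passed the threshold, at a log2 fold of 0.24 (limma adjusted p = 0.0192), where 3.3% of all tested genes passed as higher, and without scrambled B its log2 fold was 0.11.

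MCM6 (YGL201C) had 3659 and 3639 normalized reads in the +116 libraries, against 3337 and 3152 in the scrambled libraries, a log2 fold of 0.17 (SE 0.0529, limma adjusted p = 0.108). MCM2 (YBL023C) had 2593 and 2586 in the +116 libraries, against 2456 and 2238 in the scrambled libraries, a log2 fold of 0.14. For MCM2 and MCM6 the +116 libraries were close together, and scrambled A lay nearer to them than scrambled B did. MCM3 (YEL032W, 0.12), MCM4 (YPR019W, 0.12) and MCM5 (YLR274W, 0.11) had the smallest log2 folds of the 6. Without scrambled B the log2 folds of the 6 genes ran from 0.07 to 0.13, and without scrambled A from 0.14 to 0.35. Of the 38 replication genes 0 had an unadjusted limma p under 0.05 without scrambled B, against 7.14% of all tested genes, and 13 without scrambled A, against 21.4%.

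Beside the helicase, the genes that load it were close to 0. The 6 ORC genes had log2 folds from −0.04 (ORC5) to 0.08 (ORC4), with a median of 0.0319, and none had an unadjusted p under 0.05. ORC3 had 1214 and 1228 normalized reads in the +116 libraries, against 1217 and 1201 in the scrambled libraries, and its 95% confidence interval on the log2 scale was −0.12 to 0.15. The groups overlapped for ORC1, ORC3, ORC4 and ORC6. For ORC2 the +116 libraries lay above and for ORC5 below the scrambled libraries. CDC6 (YJL194W), whose product loads the helicase with ORC and whose window holds 2 ECB-like matches, had 1464 and 1600 normalized reads in the +116 libraries, against 1502 and 1496 in the scrambled libraries. The +116 values straddled the scrambled values, at a log2 fold of 0.03 (SE 0.0636).

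Of the genes that fire origins, CDC45 stood furthest from 0. CDC45 (YLR103C), whose product joins the helicase to make it active, had 1364 and 1376 normalized reads in the +116 libraries, against 1268 and 1171 in the scrambled libraries. The groups did not overlap, and the log2 fold was 0.17 (SE 0.0648, limma adjusted p = 0.165). For the other 5 the groups overlapped. DBF4 (YDR052C), which encodes the activator of the Cdc7 kinase, had 3018 and 3280 normalized reads in the +116 libraries, against 3076 and 2856 in the scrambled libraries, a log2 fold of 0.09. CDC7, the kinase gene, had 1034 and 1031 in the +116 libraries, against 993 and 1052 in the scrambled libraries. The firing factor genes SLD2, SLD3 and DPB11 had log2 folds of 0.04, 0.02 and 0.03.

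Of the 3 genes of polymerases epsilon and delta among the 38, POL2 stood furthest from 0. DPB4, a subunit of polymerase epsilon outside the 38, was further from 0 on the other side, at −0.21. POL2 (YNL262W), the catalytic subunit of the leading strand polymerase epsilon and the longest gene of the 38 at 6669 bp, had 3849 and 3777 normalized reads in the +116 libraries, against 3481 and 3295 in the scrambled libraries. The groups did not overlap, and the log2 fold was 0.17 (SE 0.0527, limma adjusted p = 0.104). DPB2, the second subunit of the same polymerase, had 1644 and 1621 in the +116 libraries, inside the scrambled values of 1715 and 1559, with a log2 fold of −0.0023. POL3, the catalytic subunit of polymerase delta, had a log2 fold of 0.09.

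In polymerase alpha-primase, POL1 and POL12 had log2 folds of 0.09 and 0.09, and the primase genes PRI1 and PRI2 had −0.10 and 0.0068. PRI1 (YIR008C), the catalytic primase subunit, had 1755 and 1752 normalized reads in the +116 libraries, against 1859 and 1892 in the scrambled libraries. Its groups did not overlap (limma adjusted p = 0.335). The values of PRI2 overlapped, and those of POL1 did not.

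The genes of the clamp and its loader lay on the other side of 0, with RFC1 as the exception. POL30 (YBR088C), which encodes PCNA, had 4877 and 4648 normalized reads in the +116 libraries, against 4983 and 5384 in the scrambled libraries, a log2 fold of −0.12 (SE 0.0547, limma adjusted p = 0.218). RFC5 (YBR087W) had 2073 and 1983 in the +116 libraries, against 2212 and 2347 in the scrambled libraries, a log2 fold of −0.17 (SE 0.0581, limma adjusted p = 0.133). Both +116 libraries lay below both scrambled libraries for these 2 genes, and likewise for RFC3 and RFC4. All of these are under 1300 bp, a limit chosen after the values were seen. Of the 3088 tested genes under it, 1308 were likewise lower without overlap, against 26.3% of all tested genes.

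RFC4 and RFC3 had log2 folds of −0.14 and −0.10, and RFC2, whose groups overlapped, had −0.02. RFC1 (YOR217W), the large subunit, had 3862 and 4211 normalized reads in the +116 libraries, against 3802 and 3734 in the scrambled libraries, a log2 fold of 0.10 (SE 0.0554), which was 0.16 without +116 A and 0.04 without +116 B. At 2586 bp its coding length is more than that of any other subunit of the loader, which run from 972 to 1065 bp.

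The subunits of RPA, which coats single-stranded DNA at the fork, were spread around 0. RFA2 (YNL312W) had 3788 and 3520 normalized reads in the +116 libraries, against 4064 and 4153 in the scrambled libraries. Both +116 values lay below the scrambled values, and the log2 fold of −0.17 (SE 0.054, limma adjusted p = 0.112) was the lowest of the 38. Without +116 A RFA2 passed the threshold, at a log2 fold of −0.22 (limma adjusted p = 0.0446), where 1.66% of all tested genes passed as lower. RFA3 had a log2 fold of −0.06 and RFA1 of 0.03, in both cases without overlap of the groups.

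Of the genes that finish lagging strand fragments, CDC9 (YDL164C) had 2615 and 2538 normalized reads in the +116 libraries, against 2503 and 2274 in the scrambled libraries, a log2 fold of 0.11 (SE 0.0599). RAD27 had 3587 and 3137 in the +116 libraries, a wider spread than its scrambled values of 3428 and 3372, and a log2 fold of −0.02. CDC21 (YOR074C), which encodes the thymidylate synthase that supplies dTMP, had 2108 and 2162 in the +116 libraries, against 2214 and 2335 in the scrambled libraries, a log2 fold of −0.09.

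**Figure D3:**
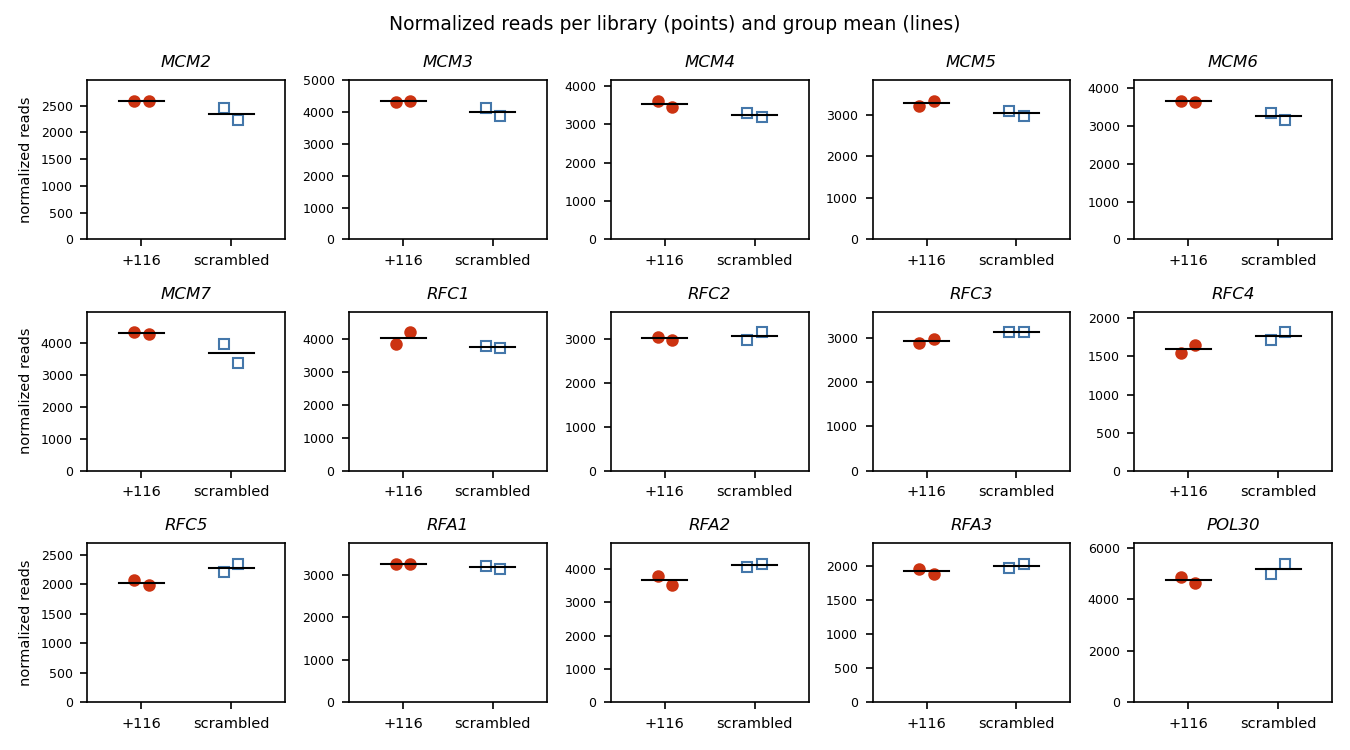
Normalized reads of the 6 MCM genes, the 5 RFC genes, the 3 RPA genes and POL30 in each library, +116 left and scrambled right, with axes from 0; each point is 1 library and each line the mean of 2. The differences between the guides are small beside the level of each gene: the fitted difference of MCM7, the highest of the 38, is 17.3%.

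The order of the log2 folds followed coding length. Across the 38 genes, which share the same 4 libraries and are not replicates, Spearman's rho between log2 fold and coding length was 0.877, and the log2 fold was higher by 0.102 per doubling of length. Over the 5794 tested genes with a coding length these values were 0.561 and 0.0555. At limits chosen after the values were seen, the 10 replication genes under 1300 bp all had log2 folds below 0 and the 15 over 2100 bp all had log2 folds above 0. Of all tested genes 71.9% of those under 1300 bp were below 0 and 88.4% of those over 2100 bp were above 0. Their medians were −0.0976 and 0.111 for the replication genes, and −0.0588 and 0.0967 for all tested genes.

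A tilt along length was also present between libraries with the same guide. Among the 38 genes, scrambled B differed from scrambled A by −0.0698 on the log2 scale per doubling of length (Spearman's rho −0.733), and +116 B from +116 A by 0.0238 (0.236). The 4 differences of a +116 library from a scrambled library ran from 0.0548 to 0.148 per doubling. For these genes the scrambled libraries thus differed along length by more than +116 A and scrambled A did.

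Each library's trend with coding length, estimated over the 5794 tested genes with a coding length, was then subtracted. After this, 18 of the 38 genes lay above 0 and 20 below, with a median of −0.0062. None passed the limma threshold (0.0173% of all genes in that fit did), and 3 had an unadjusted p under 0.05 (MCM7, RFA2 and RFC5), against 13% of these genes. All 6 MCM genes still lay above 0, from 0.0257 (MCM3) to 0.15 (MCM7), with a median of 0.0471. Of the 15 replication genes over 2100 bp, these 6 among them, 11 lay above 0 and 4 below, with a median of 0.0257. RFC5 (−0.14), RFA2 (−0.12) and RFC4 (−0.11) were the lowest. RFC1, POL2 and POL30 had 0.01, 0.05 and −0.06, and 11 genes changed sign without being called in either fit. A rho of 0.471 with length was left among the 38 genes, where it was −0.0314 over the 5794 genes.

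**Figure D4:**
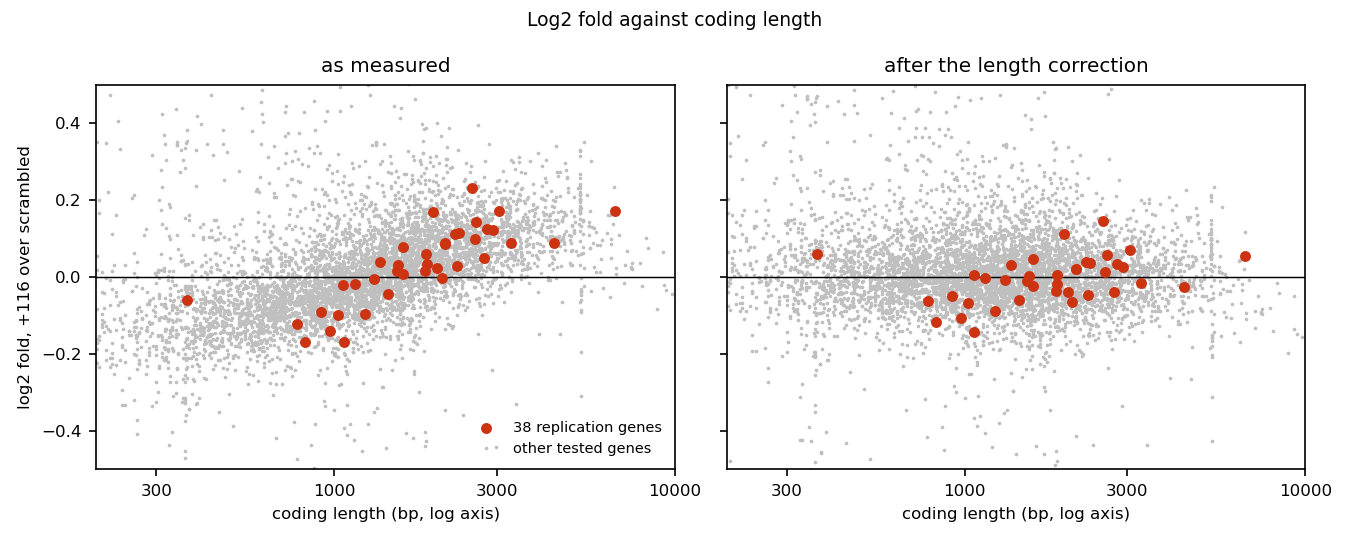
Log2 fold (+116 over scrambled) against coding length for the 38 replication genes (red) and the other tested genes (grey), as measured and after subtraction of each library's trend with length; genes outside the axis limits are not drawn. The red points climb with length in the left panel, at a rho of 0.877, and centre on a median of −0.0062 in the right panel.

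Divided by coding length, the levels of the replication genes spanned 12.3-fold. Levels here are normalized reads per kb of coding length, as mean ± SD over all 4 libraries. POL30 was highest at 6400.4 ± 396, followed by RFA3 at 5311 ± 164 and RFA2 at 4721 ± 348, and these 3 did not overlap each other or the next gene in any library. The lowest were POL2 at 540 ± 38.7, POL3 at 535 ± 24.0 and POL1 at 519 ± 21.8, the catalytic subunits of the 3 replicative polymerases, whose ranges overlapped. Of the 37 neighbouring pairs in this order, 8 did not overlap over the 4 libraries. The median of the 38 genes was 1148, beside 1450.0 over the 5794 tested genes with a coding length, and 13 of the 38 lay above that median of all genes.

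Subunits that act in equal numbers in their complexes did not have equal normalized reads per kb of coding length. The MCM genes ran from 947 ± 63.5 normalized reads per kb (MCM2) to 1566 ± 171 (MCM7), a 1.65-fold range. The ORC genes ran from 656 ± 6.04 (ORC3) to 1167 ± 28.9 (ORC5), a 1.78-fold range. The loader genes ran from 1509 ± 82.1 (RFC1) to 2947 ± 121 (RFC3), 1.95-fold, and the RPA genes from 1725 ± 27.3 (RFA1) to RFA3, 3.08-fold. In polymerase alpha-primase PRI1 stood at 1475 ± 58.4 and POL1 lowest of the 38, 2.84-fold apart. DBF4, at 1446 ± 82.7, was above its kinase partner CDC7, at 674 ± 16.2, in every library. Levels were lower in longer genes across the 38 genes (Spearman's rho −0.62). How far these ranges go with coding length, rather than with the number of transcripts, was not tested.

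**Figure D5:**
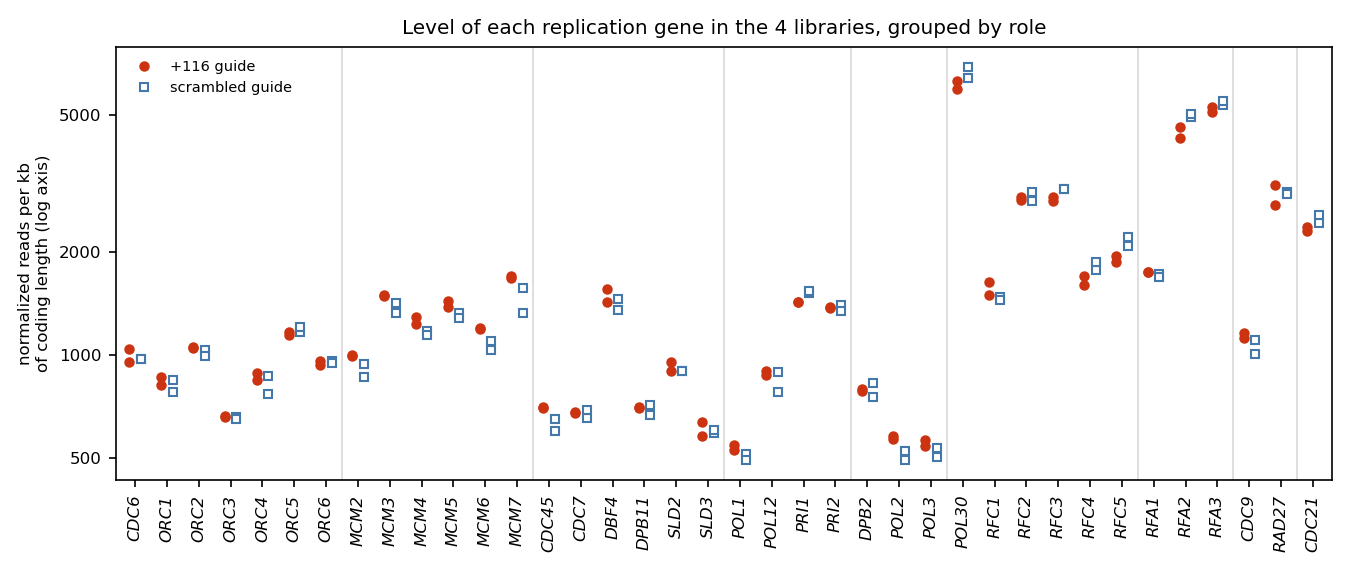
Normalized reads per kb of coding length (log axis) of the 38 genes in the 4 libraries, grouped by role, with +116 libraries as filled circles to the left and scrambled libraries as open squares to the right. POL30, RFA2 and RFA3 stand highest, and POL1, POL2 and POL3 lowest, with means of 519 to 540.

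The 17 genes with an MCB and the 21 without one had log2 folds with medians of 0.0333 and 0.0283 and ranges of −0.17 to 0.17 and −0.17 to 0.23. The 5 genes with an ECB-like match had a median of 0.121, beside 0.0292 over all 39 tested genes with such a match. MCM2 and MCM4, without a match, had log2 folds within the range of the MCM genes that have it. The median coding length of the 5 genes was 2538 bp and that of the 39 genes 1296 bp. After the length correction the median log2 fold was 0.0368 for the 5 genes and 0.0368 for the 39.

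A further 33 genes of the fork, of origins and of dNTP supply had 0 called in either direction, 15 log2 folds above 0 and 18 below, and a median of −0.0084. An unadjusted limma p under 0.05 was found for 6 (18.2%), all below 0, against 21.8% of all tested genes, 10.3% below 0. DPB4, a small subunit of polymerase epsilon, had 1655 and 1540 normalized reads in the +116 libraries, against 1859 and 1821 in the scrambled libraries, a log2 fold of −0.21 (limma adjusted p = 0.0964). PSF1, of the GINS complex, had −0.21 and RNR4, a ribonucleotide reductase subunit gene, −0.13. Without +116 A the log2 fold of DPB4 passed the threshold, at −0.26 (limma adjusted p = 0.0428). The log2 folds of these 33 genes also followed coding length, with a rho of 0.678.

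In a growing culture, a smaller share of cells in a cell cycle stage and less of a transcript per cell cannot be told apart, so markers of the stages are given beside the replication genes. Of 36 such transcripts and regulators 0 were called, and their part in the values above was not tested. The 7 genes of late G1 summed to 20775 and 21522 normalized reads in the +116 libraries, against 22465 and 20990 in the scrambled libraries, which overlap. Of these, SWE1 had a log2 fold of 0.12 and CLN2 of −0.11. The 7 genes of G2 and mitosis also overlapped between the groups, with CLB2 at a log2 fold of 0.08 and BUD4 at 0.03.

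The 8 histone genes of S phase, with a median length of 397.5 bp, all had log2 folds below 0, with HTA2 at −0.25 (limma adjusted p = 0.05002), HTA1 at −0.23 and HTB1 at −0.20. Their median log2 fold was −0.16, and −0.0364 after the length correction, with HHT2 above 0. They summed to 144206 and 139036 normalized reads in the +116 libraries, against 151163 and 164456 in the scrambled libraries. The 7 genes of the mitosis to G1 interval, the time at which ECB genes are transcribed, summed to 68685 and 65058 in the +116 libraries, against 59923 and 58286 in the scrambled libraries. Among them CTS1 (log2 fold 0.25, limma adjusted p = 0.0549), EGT2 (0.27) and DSE2 (0.16) had the 3 lowest p and act in cell separation. DSE1 (0.10) acts there too. Its +116 values both lay above its scrambled values, and those of ASH1 (−0.06) and PCL9 (−0.11) both lay below. These 3 and SIC1 (0.03) summed to 17438 and 16970 in the +116 libraries, against 16975 and 17032 in the scrambled libraries, which overlap. Setting the genes with the 3 lowest p apart favours such an overlap. By edgeR 3 of the 36 markers were called (2.64% of all tested genes), HTA2, CTS1 and EGT2, and by DESeq2 5 (2.87% of all), these with HTA1 and HTB1. An unadjusted limma p under 0.05 was found for 13 of the 36 (36.1%), against 21.8% of all tested genes. Of the 7 regulators of late G1 transcription, MBP1, the DNA binding subunit of MBF, had a log2 fold of 0.16, its counterpart SWI4 of SBF 0.15, and WHI5, an inhibitor of SBF, 0.11, none of them called. Without scrambled B the log2 fold of WHI5 was −0.02. After the length correction, with all libraries kept, MBP1 had a log2 fold of 0.08, SWI4 of 0.05 and WHI5 of 0.15.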

How the data were processed

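The authors deposited a table of normalized read counts, a signal that is never negative, with 1 column per library. DESeq2, Picard 1.84, Bowtie2, TopHat2 2.0.8, TopHat, Trimmomatic 0.30 and bcl2fastq 1.8.4 are named, without roles, in the submitters' processing notes. The build used for alignment is not given in the sources used here. Each value divided by its column's step came out as a whole read (100% within 1e-06), so reads could be recovered.

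The 38 genes and the other lists were chosen with earlier results of these data known. The text names all 38 and, from each other list except the mating type and meiosis markers, the genes past the threshold and the 3 with the lowest p, with GAL1, GAL10 and MET17 as checks. Single genes that this rule names and the text does not are not reported here. MCM10, HHT2, SIC1, DSE1, ASH1 and PCL9 were chosen after their values were seen. Genes with a mean of at least 5 entered limma 3.58.1 (R 4.3.3), with its prior variance following the mean, on log2(value + 1), two-sided, +116 over scrambled. The fit was tested on simulated counts, which held no trend along coding length. Folds on this scale understate those of low genes. Coding lengths and promoter windows came from the R64 RefSeq assembly, matched by locus tag, and the coordinates are those of R64. The length correction subtracted from each library a lowess curve (span 0.3) of its deviation from the gene mean on log2 coding length. Alternatives were edgeR 4.0.16, DESeq2 1.42.0, other scalings, filters and pseudocounts, each library left out, and a replicate block. Intervals cover the spread between these libraries only.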

Additional observations from a re-analysis of the deposited data

How the results depend on the processing

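Of the 38 replication genes 0 were called under 15 of the 18 alternatives, 17 of them planned. With a replicate block 1 was called (MCM7, limma adjusted p = 0.0232), and leaving out 1 library gave 0 to 1. The A libraries' deviations from their group means had a correlation of −0.04 over 6277 genes. With 2 libraries a group this cannot settle whether the letters pair the libraries. The median log2 fold of the 38 genes, 0.0316, ran from 0.0187 to 0.0574 with 1 library left out and was −0.0062 after the length correction. The log2 fold kept its sign under all 18 alternatives for 20 of the 38 genes, among them the 6 MCM genes, CDC45, POL2, POL30, RFA2, RFC4 and RFC5. No called gene changed sign.

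The count over all tested genes, 53, moved to 7 with no filter, 137 at a mean of at least 50, 88 with TMM scaling, 149 with upper-quartile scaling, 1 without a trend, 166 by edgeR and 180 by DESeq2. It was 258 with a replicate block, 1 with the length correction, 0 with that and the block, and 1 with the length and GC correction. Leaving out 1 library gave 0 to 282, with 0 without scrambled A or scrambled B, 236 without +116 A and 282 without +116 B, and keeping only genes with a coding length, chosen after seeing the data, gave 96. Of the 33 other replication genes 0 were called in all but 1 alternative, and 0 to 2 with 1 library left out (DPB4 and MCM10 without +116 A). Of the 36 cell cycle markers, 4 were called at a mean of at least 50, 3 with TMM scaling, 4 with upper-quartile scaling, 3 by edgeR, 5 by DESeq2, 4 with a replicate block, 3 with genes of known length only, and 0 to 4 with 1 library left out.

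With 2 libraries a group, the number of libraries limits the precision. The cause of the moves was not tested.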
